A study of Homo sapiens with 24 samples.

Results

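The expression program that sets PC3 cells apart from other cancer cells at ambient oxygen was examined. PC3 is a line of prostate cancer cells, and its 3 normoxic libraries were compared over all genes with 9 normoxic libraries of 3 other lines, so that 12 of the 24 libraries deposited for these lines were used. The other lines were A549 (lung cancer), HCT-116 (colorectal cancer) and T47D (breast cancer), with 3 libraries each. Normoxic cells were kept in 21% oxygen, and the other 12 libraries came from the same lines after 16 h in 0.5% oxygen (hypoxia). PC3 and A549 cells grew in F12K medium, HCT-116 cells in McCoy's 5a and T47D cells in DMEM, each with 10% FBS, so that medium and line cannot be told apart outside the pair of PC3 and A549. The cells were not genetically modified according to the labels, and each tissue was represented by 1 line. The labels number the 3 libraries of a line without saying whether they came from separate cultures, so the p-values measure the spread between these libraries, which may be partly technical.

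RNA was measured as sequenced fragments counted per gene. Library totals were 22698584, 52965052 and 31779772 counts in PC3 cells, against 51650509 to 57448885 in A549, 50636883 to 61798736 in HCT-116 and 36578554 to 57359955 in T47D cells. Levels are given as CPM, which are counts divided by a TMM-scaled library total, either for libraries 1, 2 and 3 in turn or as mean ± SD of 3 libraries. A count of 0 allows a level of up to 3 counts per library, which is 0.0936 CPM on average in PC3 cells, and this limit covers counting error only.

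Prostate epithelium has a luminal layer, which responds to androgens and secretes kallikreins, and a basal layer, which is anchored to laminin. PC3 was established from a bone metastasis and is known as an androgen-independent line. It is also used as a model of cells that secrete chemokines, proteases and factors that act on bone.

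Of 15616 genes tested, 5290 (33.9%) were higher and 4465 (28.6%) were lower in PC3 cells than in the mean of the other lines (edgeR quasi-likelihood test, Benjamini-Hochberg adjusted p under 0.05 and fold change over 1.2). The median log2 fold change over all genes was -0.0165. In single pairs, 28.9% of genes were higher and 31.1% lower in PC3 than in A549 cells, 33.2% were higher and 32.4% lower than in HCT-116 cells, and 33.4% were higher and 34.4% lower than in T47D cells. These 3 comparisons share the PC3 libraries. A stricter call required the same direction against each of the 3 lines, and 1763 genes (11.3%) were higher and 1504 (9.63%) lower by this rule. The PC3 libraries lay above all 9 others for 13.4% of genes and below all of them for 10.6%. A difference from the mean was often not a difference from every line, since 950 of the 5290 higher genes (18%) were called lower against at least 1 line, as were 353 of the 4465 lower genes (7.91%) called higher. Between libraries, the median correlation across genes of log2 CPM, over pairs of libraries, was 0.9895 within PC3, 0.8093 between PC3 and HCT-116, 0.8025 between PC3 and A549 and 0.7476 between PC3 and T47D (genes are not independent replicates).

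The prostate label was first set against marker genes. The defining products of luminal secretion were not read, since KLK3 (prostate-specific antigen) had 0 counts in all 12 libraries and KLK2 had 0 in PC3. In a bulk library, a low level in every cell and a higher level in few cells cannot be told apart. In contrast, HOXB13, a homeobox factor of the prostate and distal gut, was read at 80.7, 80.6 and 73.7 CPM in the PC3 libraries. It was at 12.1 ± 0.229 CPM in A549, at 9.96 ± 2.29 CPM in HCT-116 and at 0 counts in T47D cells. Every PC3 library lay above every other library for HOXB13, which was 6.5-fold higher than in A549 (edgeR adjusted p = 1.08e-08). SLC45A3 (prostein), a prostate-enriched transporter, was read at 43.1, 46.2 and 37.3 CPM in PC3 and was 3.56-fold to 8.42-fold higher than in the other lines. TMPRSS2, an androgen-responsive protease, was at 6.72 ± 1.08 CPM, below T47D cells at 12.9 ± 3.59 CPM. Against the mean of the other lines it was called higher (log2 fold change 7.26, edgeR adjusted p = 4.6e-09). Of 15 luminal and androgen-responsive genes tested, 6 (40%) were higher and 4 (26.7%) lower than the mean, near the 33.9% and 28.6% of all genes, 2 were higher than each line (11.3% of all genes), and the median log2 fold change was -0.34. Of the luminal markers, HOXB13 and SLC45A3 were thus read above all other libraries, and the 2 kallikreins were not detectable at this depth.

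Of 8 prostate basal genes tested, 5 were higher than the mean and also higher than each line (LAMB3, ITGB4, CD44, KRT15 and S100A2), against 33.9% and 11.3% of all genes, 1 was lower than the mean, and the median log2 fold change was 1.88. LAMB3, the beta chain of laminin-332, was read at 412, 524 and 352 CPM in PC3 cells. It was at 29.8 ± 1.18 CPM in A549, at 20.7 ± 6.69 CPM in HCT-116 and at 3.56 ± 1.79 CPM in T47D cells. The groups did not overlap, and LAMB3 was 14.4-fold, 20.7-fold and 121-fold higher in PC3. ITGB4, the integrin that binds this laminin in hemidesmosomes, was at 455, 543 and 408 CPM and 2.97-fold to 5.41-fold higher than in the other lines. However, the basal keratin KRT14 had 0 counts in PC3 cells, KRT5 had at most 1 count in a library, and the basal regulator TP63 had at most 5.

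**Figure D1:**
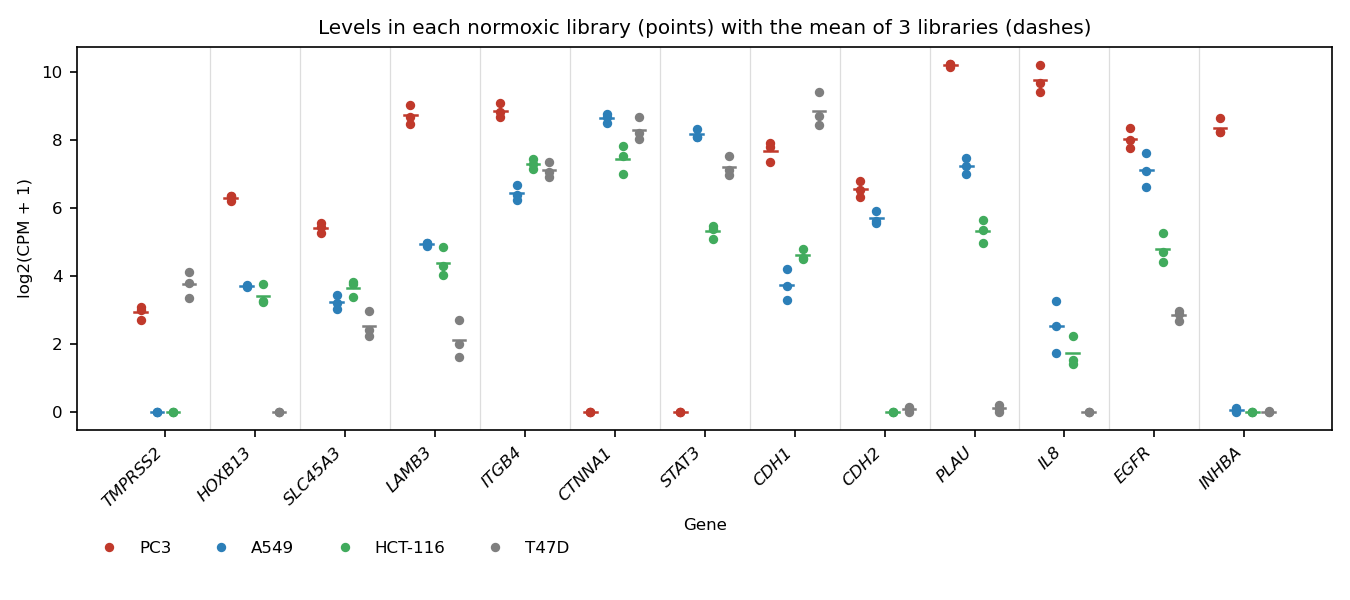
Level of 13 genes, as log2(CPM + 1), in each of the 12 normoxic libraries (points) with the mean of the 3 libraries of a line (dashes). CTNNA1 and STAT3 lie at 0 in PC3, and HOXB13, LAMB3, IL8 and INHBA lie above all other libraries.

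Markers of the other tissues were examined in the same way. The all-gene shares for these counts against the mean are 33.9% higher and 28.6% lower. Of 5 lung alveolar genes tested, 1 was higher and 1 lower than the mean. Of 8 intestinal genes, 3 (37.5%) were higher and 0 lower, a share near that of all genes, and DESeq2 called 2 higher and 3 lower. Of 11 luminal breast genes, 4 (36.4%) were higher and 2 (18.2%) lower, and the median log2 fold change was 3.58 against HCT-116 but -6.48 against T47D cells. GREB1, an estrogen-induced gene of breast cells, had 1 count in total over the PC3 libraries and 354 ± 61.8 CPM in T47D cells. TFF1, a secreted trefoil peptide known as an estrogen target, was nevertheless higher in PC3 than in each line, at 21.6, 16.3 and 23.6 CPM against 1.68 ± 1.1 CPM in T47D cells. Of 7 neuroendocrine genes tested, 2 were higher and 2 lower, each 28.6% of the list. DLL3, a Notch ligand of neuroendocrine tumors, was at 5.77 ± 0.783 CPM in PC3 and at 9.96 ± 1.6 CPM in A549 cells, and had at most 6 counts in any HCT-116 or T47D library. Markers of leukocytes, endothelium and fibroblasts summed to 16.6 CPM in PC3 cells and 15.5 to 41.2 CPM in the other lines, with most counts in COL1A1, a collagen that carcinoma cells can also express.

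A set of genes was read in the other lines and not at all in PC3 cells. Among 8703 genes at 5 CPM or more in each of the 9 other libraries, 26 (0.299%) had 0 counts in all 3 PC3 libraries. By the same rule, 7 genes were at 0 in A549, 29 in HCT-116 and 21 in T47D cells, so the number in PC3 lay within the range of these lines. CTNNA1, which encodes alpha-catenin, the link from E-cadherin to actin, had 0 counts in each PC3 library. It was at 407, 362 and 434 CPM in A549, at 184, 127 and 225 CPM in HCT-116 and at 294, 263 and 407 CPM in T47D cells. CTNNA1 lies at chr5:137946656-138270723 (GRCh37, plus strand), and its level was at least 4281-fold, at least 1910-fold and at least 3429-fold lower in PC3 than in A549, HCT-116 and T47D cells. The neighbouring gene HSPA9 was at 625 CPM in PC3, and SIL1, on the other side, was at 2.73 CPM against 18.6 to 35.3 CPM. Other genes of this set were RAB5C, a GTPase of early endosomes, TSPAN14, a tetraspanin, PAFAH1B3, a subunit of an acetylhydrolase, CIC, a transcriptional repressor downstream of receptor tyrosine kinases, HEXA, a lysosomal hexosaminidase, NLRP2, PARP6 and HFE, the hemochromatosis gene. RAB5C was at least 1371-fold lower than in each line, and CIC was at least 469.5-fold lower. In the 3 hypoxic PC3 libraries, 24 of the 26 genes were also at 0 counts.

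Several of these genes were neighbours. On chromosome 17, 11 consecutive genes from DHX58 to PTRF (chr17:40253422-40575274, GRCh37) had 0 counts in all 3 normoxic and all 3 hypoxic PC3 libraries. Of these 11, 8 were at 1 CPM or more in at least 1 other line, and 6 belonged to the 26 genes (KAT2A, RAB5C, GHDC, STAT5B, STAT3 and PTRF). STAT3, the transcription factor that mediates interleukin-6 family signals, was read at 271, 273 and 322 CPM in A549, at 40.9, 33 and 43.7 CPM in HCT-116 and at 126, 137 and 184 CPM in T47D cells. It was at least 3085-fold, at least 419-fold and at least 1594-fold lower in PC3. KAT2A, the acetyltransferase known as GCN5, was at least 594-fold lower than in each line, and PTRF, the caveolar coat protein cavin-1, was at least 154-fold lower. Shorter runs with 0 normoxic counts were PARP6, CELF6 and HEXA at chr15:72533522-72668761, CIC, PAFAH1B3 and PRR19 at chr19:42772689-42814966, PPAP2C and MIER2 at chr19:281040-344815, FAM213A and TSPAN14 at chr10:82167585-82292880, and C2orf16 and ZNF512 at chr2:27760253-27846084. A run of ZNRD1, PPP1R11 and RNF39 at chr6:30026676-30043626 had 1 normoxic count and 9 hypoxic counts in total. PKM, the neighbour of PARP6, was at 2707 CPM in PC3. Runs were searched for in PC3 only, so whether silent genes of the other lines lie together as often was not tested. The definition of a run, and the naming of HFE and of run members outside the 12 silent genes with the highest levels elsewhere, were chosen after the values were seen, and DNA copy number was not measured here.

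**Figure D2:**
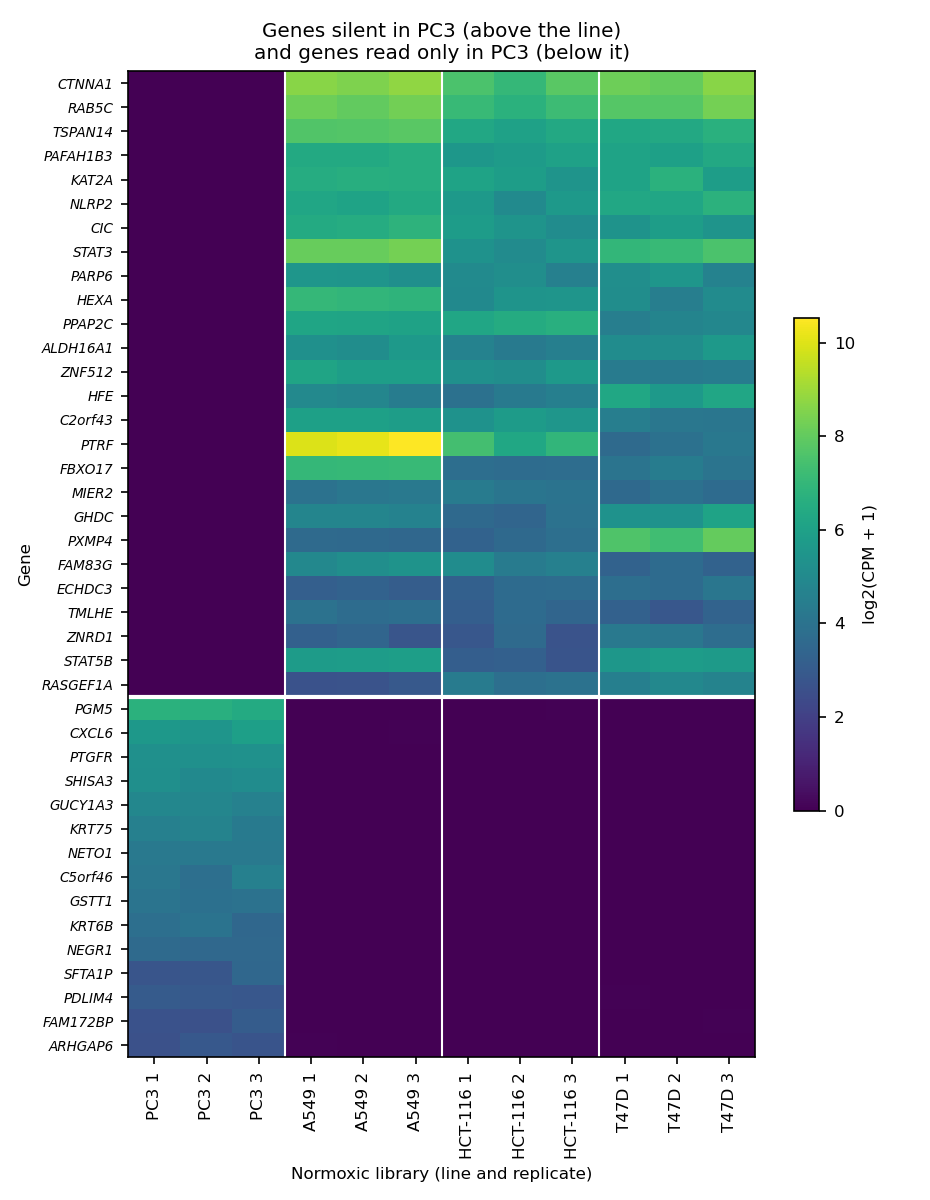
Heat map of log2(CPM + 1) for the 26 genes at 0 counts in PC3 and the 15 genes read only in PC3 (rows) in the 12 normoxic libraries (columns). The upper rows are empty in the 3 PC3 columns and filled in the other 9, and the lower rows show the reverse.

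**Figure D3:**
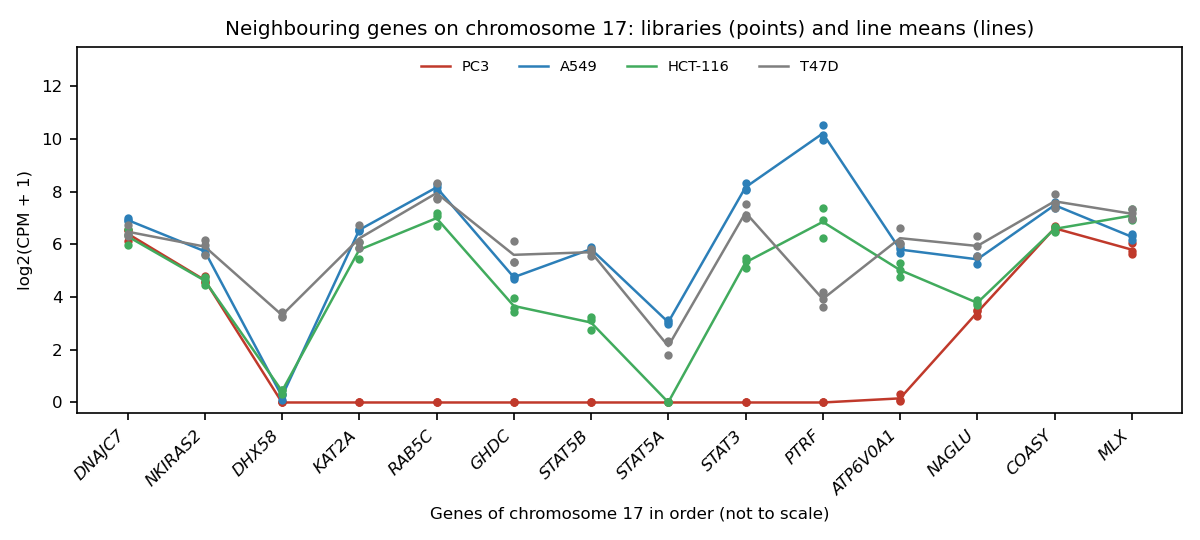
Level, as log2(CPM + 1), of neighbouring genes on chromosome 17 in their order, which is not to scale. Points are libraries and lines are means of 3 libraries, HSPB9, KCNH4 and HCRT are not drawn, and the PC3 line lies at 0 from DHX58 to PTRF.

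Among 25 genes of PI3K signaling, 12 were higher and 6 lower than the mean (33.9% and 28.6% of all genes), 6 were higher and 3 lower than each line (11.3% and 9.63%), and the median log2 fold change was 0.26. The phosphatases INPP4B and PHLPP1, which oppose this pathway, were higher than in each line, by 1.51-fold to 4.97-fold and 2.27-fold to 3.03-fold. PIK3R1, the regulatory subunit p85 alpha, was at 4.89 ± 1.03 CPM and lower than in each line, by 2.09-fold to 33.9-fold.

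Genes read only in PC3 were rare. Of 10231 genes at 5 CPM or more in each PC3 library, 15 had 3 counts or fewer in each of the 9 other libraries, against 40 such genes for A549, 9 for HCT-116 and 30 for T47D cells. Of these 15, 7 also had 3 counts or fewer in each of the 9 hypoxic libraries of the other lines. The prostaglandin F receptor PTGFR was at 38.2, 38.3 and 38.8 CPM in PC3 and at 0 counts in all 9 others. SHISA3, GUCY1A3 (the alpha subunit of soluble guanylate cyclase), C5orf46, GSTT1 and NEGR1 were also at 0 counts in all 9, at 34.1 ± 2.67, 26.6 ± 2.33, 17.8 ± 4.77, 14.8 ± 0.924 and 10.95 ± 0.376 CPM in PC3. GSTT1 is a glutathione transferase gene that is often deleted in human genomes. KRT75 and KRT6B, keratins of hair follicle and stratified epithelium, were at 22.4 ± 3.43 and 12.9 ± 2.22 CPM, with 3 counts and 1 count in total over the others. PGM5, with 97.4 ± 10.1 CPM, has near-identical copies, and its counts are uncertain.

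The 12 genes with the highest ratios to the other lines by the rule used were INHBA, CDH11, PKP1, PI3, PTGFR, PGM5, SHISA3, CALB1, GUCY1A3, CXCL6, TRIM58 and C5orf46. INHBA, which encodes the subunit of activin A, was at 299.5, 398 and 300.5 CPM in PC3 cells. It had 7, 0 and 3 counts in total in A549, HCT-116 and T47D cells, and was at least 5662-fold higher in PC3 than in HCT-116. CDH11, a cadherin first known from osteoblasts, was at 158, 165 and 127 CPM in PC3 and had 8 counts in total over the 9 others. PKP1, a desmosomal plaque protein, was at 536 ± 119.8 CPM with 39 counts in the others, and PI3 (elafin), an elastase inhibitor, was at 473 ± 37.5 CPM with 38. The corresponding 12 genes with the largest deficits all had 0 counts in PC3 and belong to the silent genes described above.

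**Figure D4:**
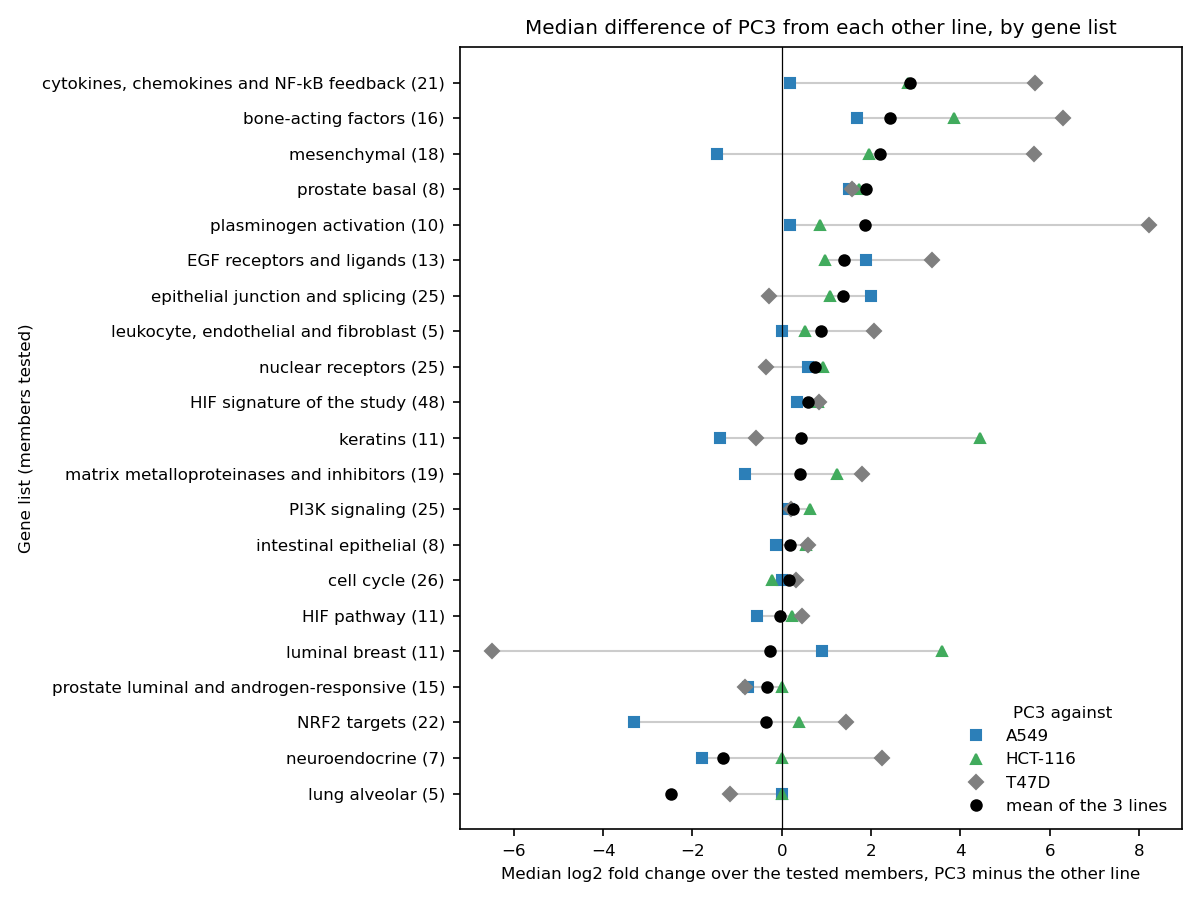
Median log2 fold change of PC3 against A549, HCT-116 and T47D cells (coloured points) and against their mean (black points) for the gene lists, with the number of members tested in parentheses. Cytokine, EGF and bone-acting lists lie at or to the right of 0 against all 3 lines, while epithelial, mesenchymal and NRF2 lists change sides with the line compared.

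Epithelial and mesenchymal adhesion genes were both read in the PC3 libraries. Whether the same cells expressed both cannot be told from bulk libraries. Of 25 genes of epithelial junctions and splicing, 18 were higher and 5 lower than the mean (33.9% and 28.6% of all genes). Only 3 of the 25 were higher than each line (11.3% of all genes). Against T47D, 6 were higher and 11 lower (33.4% and 34.4% of all genes). The median log2 fold change was 1.99 against A549, 1.09 against HCT-116 and -0.28 against T47D. Of 18 mesenchymal genes, 13 were higher and 3 lower than the mean (33.9% and 28.6% of all genes), with medians of -1.44, 1.95 and 5.64, and against A549 4 were higher and 11 lower (28.9% and 31.1% of all genes). CDH1 (E-cadherin) was at 223, 239 and 164 CPM in PC3 cells, 16.2-fold above A549 and 8.84-fold above HCT-116, and was at 482 ± 174 CPM in T47D cells. CDH2 (N-cadherin) was at 91.9, 112 and 79.2 CPM in PC3, 1.82-fold above A549 (edgeR adjusted p = 0.00228), with 1 count in total in HCT-116 and 13 in T47D cells. VIM (vimentin) was at 337 ± 38.3 CPM, between A549 at 1303 ± 254 CPM and HCT-116 at 4.92 ± 0.405 CPM. For CDH1 and VIM, PC3 was thus intermediate, and for CDH2 it was the highest of the 4 lines. The transcriptional repressors SNAI2 and TWIST1 were also higher than in each line, at 11.9 ± 0.132 and 11.1 ± 1.74 CPM. S100A4, a calcium-binding protein of motile cells, went the other way, at 6.18, 4.23 and 8.16 CPM in PC3 and 12.6-fold to 113-fold lower than in the other lines. Of 11 keratins, 5 (45.5%) were higher and 3 (27.3%) lower than the mean, against 33.9% and 28.6% of all genes, and KRT6A was at 10.7 ± 2.19 CPM against 0.106 ± 0.088 CPM in A549 cells.

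Among genes of pericellular proteolysis, several were higher in PC3, and the list depended on the line compared. Plasminogen activators cleave plasminogen to plasmin, and SERPIN inhibitors block them. The list of plasminogen activation genes is wider than activators and inhibitors, and its most abundant member in PC3 was ANXA2. Of 10 genes of this list tested, 7 were higher and 0 lower than the mean (33.9% and 28.6% of all genes), 4 were higher than each line (11.3% of all genes), and the median log2 fold change was 1.87. Against A549, which shares the medium, 4 were higher and 4 lower (28.9% and 31.1% of all genes), the median was 0.19, and the summed level of the whole list was lower in PC3 (3771 against 6349 CPM). The median against T47D was 8.23. PLAU, the urokinase activator, was at 1197, 1196 and 1129 CPM in PC3. It was at 151 ± 24.3 CPM in A549, at 40.0 ± 9.42 CPM in HCT-116 and at 0.0873 ± 0.0772 CPM in T47D cells. The groups were far apart, with PLAU 7.77-fold and 29.4-fold higher than in A549 and HCT-116. PLAT, the tissue-type activator, was at 332, 276 and 280 CPM, 59.8-fold and 38.2-fold higher, and SERPINB5 (maspin) was 2.8-fold higher than in HCT-116, the nearest line. The receptor PLAUR was 1.27-fold above A549, which missed the threshold (edgeR adjusted p = 0.111). Of 19 matrix metalloproteinases and inhibitors, 10 were higher and 5 (26.3%) lower than the mean, and 5 were higher than each line, beside 33.9%, 28.6% and 11.3% of all genes. Against A549, 7 were higher and 9 lower (28.9% and 31.1% of all genes), with a median log2 fold change of -0.81. MMP14, a membrane-anchored collagenase, was at 146, 160 and 124 CPM and 82.6-fold, 10.3-fold and 440-fold above A549, HCT-116 and T47D cells. The inhibitor TIMP3 had 0 counts in PC3, and TIMP1 was at 98.7 ± 10.7 CPM, 1.33-fold above A549 (adjusted p = 0.0832).

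Genes of cytokines, chemokines and NF-kB feedback were the list with the largest share of members higher than the mean. Many of them are induced through NF-kB and AP-1, factors that bind short sites near the start of these genes. Of 21 genes tested, 19 were higher and 0 lower than the mean (33.9% and 28.6% of all genes), and 8 were higher than each line (11.3%). Members such as CXCL6 could pass the filter on PC3 counts alone and could then not be called lower, so this share was partly set by the filter. With a mean count of at least 50 required, 15 were higher and 0 lower. Against A549, 8 were higher and 6 lower (28.9% and 31.1% of all genes). The median log2 fold change was 2.88, with 0.18 against A549, 2.82 against HCT-116 and 5.67 against T47D. A549 shares the medium with PC3, and a role of the medium was not tested. The 8 genes were IL8, CXCL1, CXCL6, IL1B, IL1RN, IL6, CSF2 and TNFAIP3. The 150 bases before the start of 3 chemokine genes are shown because these genes lie together on chromosome 4 and were all higher in PC3 (RefSeq, GRCh38.p14, plus strand). Capitals mark TGANTCA, an AP-1 motif, and GGNNTTTCC, an NF-kB motif.

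IL8 (CXCL8), chr4:73740419-73740568: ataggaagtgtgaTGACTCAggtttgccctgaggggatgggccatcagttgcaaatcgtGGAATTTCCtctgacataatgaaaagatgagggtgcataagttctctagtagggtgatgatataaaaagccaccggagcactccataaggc
CXCL1, chr4:73869243-73869392: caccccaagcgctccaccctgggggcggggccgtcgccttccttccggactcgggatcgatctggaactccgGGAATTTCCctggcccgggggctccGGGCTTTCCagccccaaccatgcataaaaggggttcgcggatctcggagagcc
CXCL6, chr4:73836528-73836677: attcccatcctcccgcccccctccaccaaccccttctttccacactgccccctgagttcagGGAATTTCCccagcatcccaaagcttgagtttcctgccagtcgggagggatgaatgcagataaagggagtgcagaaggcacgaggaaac

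In the 250 bases before the start, TGANTCA (which reads the same on both strands) was found in 2 of the 8 genes and GGNNTTTCC (both strands searched) in 5 of the 8, against 6.57% and 5.48% of 35116 RefSeq promoters. The list was made of genes that include known NF-kB targets, so an excess of NF-kB motifs over all promoters was partly set by its choice. Its other members were not searched, so these shares say nothing particular to PC3. The motif letters were chosen with these sequences known, and a match describes the sequence and not binding, which was not measured here.

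IL8, the neutrophil chemokine shown first, was read at 680, 826 and 1179 CPM in PC3 cells. It was at 5.32 ± 3.23 CPM in A549, at 2.44 ± 1.12 CPM in HCT-116 and at 0 counts in T47D cells. The lowest PC3 library lay far above every other library, and IL8 was 168-fold higher than in A549 and 366-fold higher than in HCT-116 (edgeR adjusted p = 6.78e-12 against the mean). CXCL1, with 2 of the NF-kB motifs, was at 82.2, 73.8 and 85.5 CPM and was 21.9-fold and 220-fold higher than in A549 and HCT-116. CXCL6 was at 48.7, 44.1 and 60.9 CPM in PC3 and had 3 counts in total over all other libraries. CXCL5, a related chemokine, was instead at 24.5 ± 2.81 CPM in PC3 and at 286 ± 27.5 CPM in A549 cells. IL1B, the interleukin that induces chemokines in many cells, was at 30.1, 31.8 and 33.2 CPM against at most 10 counts in any other library. IL6 was at 3.89, 5.74 and 5.05 CPM, and STAT3, which acts downstream of its receptor, was among the genes with 0 counts. TNFAIP3 (A20), a feedback inhibitor of NF-kB, was at 44.5, 62.2 and 42.2 CPM and was 7.76-fold, 17.6-fold and 50.6-fold higher than in A549, HCT-116 and T47D.

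Several ligands of the EGF receptor were higher in PC3, as was the receptor. Of 13 genes tested, 10 were higher and 3 lower than the mean (33.9% and 28.6% of all genes), 5 were higher than each line (11.3%), and the median log2 fold change was 1.4. EGFR was at 254, 330 and 220 CPM in PC3, 1.86-fold above A549, 9.56-fold above HCT-116 and 42.7-fold above T47D cells. Among ligands, EPGN (epigen) was at 109, 117 and 150 CPM against at most 0.495 ± 0.0981 CPM in another line. HBEGF was 8.53-fold to 40.5-fold higher, TGFA was 1.95-fold to 6.07-fold higher and BTC was 5.28-fold to 52.6-fold higher. EREG (epiregulin) was the exception among the ligands named, at 1.16 ± 0.342 CPM in PC3 against 182 ± 44.9 CPM in A549 and 1167 ± 115 CPM in HCT-116 cells.

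Several secreted factors that act on bone cells were higher in PC3 than in each line. Of 16 genes tested, 10 were higher and 2 lower than the mean (33.9% and 28.6% of all genes), 9 were higher and 6 lower than in A549 (28.9% and 31.1%), 7 were higher than each line (11.3% of all genes), and the median log2 fold change was 2.43 (2.21 with genes at 0 counts set at their limit). DKK1, a secreted WNT inhibitor that restrains osteoblasts, was at 1334, 1360 and 1581 CPM in PC3. It was at 156 ± 12.2 CPM in A549, at 262 ± 24.6 CPM in HCT-116 and at 0.587 ± 0.107 CPM in T47D cells. All PC3 libraries lay above the others, by 9.14-fold, 5.45-fold and 2426-fold. PTHLH, the parathyroid hormone-like hormone that stimulates bone resorption, was at 95.4, 89.3 and 101 CPM and 8.84-fold above A549, the nearest line. The BMP and activin antagonists NOG (noggin) and FST (follistatin) were at 52.2 ± 4.08 and 358 ± 13.2 CPM, 51.8-fold and 80.6-fold above A549, and TGFB2 was at 272 ± 40.0 CPM, 2.5-fold above A549. FST binds activin A, the product of INHBA, and both genes were higher in PC3 than in each line. Of 25 nuclear receptors, 12 were higher and 5 lower than the mean, and 5 were higher than each line, beside 33.9%, 28.6% and 11.3% of all genes. PPARG, the regulator of adipocyte genes, was at 207 ± 20.6 CPM and 4.06-fold above HCT-116, the nearest line, NR2F1 was at 87.6 ± 5.5 CPM and 3.45-fold above HCT-116, and the thyroid hormone receptor THRA was 1.95-fold to 3.19-fold lower than in the other lines.

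The study assembled a signature of genes that hypoxia induces through HIF, and their levels at ambient oxygen were compared here. The authors chose these genes partly on libraries of these lines for their response to hypoxia, so the list is no independent evidence of a direction. All 48 members were tested, 30 were higher and 6 lower in PC3 than the mean (33.9% and 28.6% of all genes), and 14 were higher and 3 lower than each line (11.3% and 9.63%). Against A549, 22 were higher and 13 lower (28.9% and 31.1% of all genes). The median log2 fold change was 0.58, with 0.34 against A549, 0.82 against HCT-116 and 0.84 against T47D cells, and among the hypoxic libraries it turned to -0.18 against the mean. HK2, which phosphorylates glucose in the first step of glycolysis, was at 186, 239 and 146 CPM in PC3. It was at 1.97 ± 0.744 CPM in A549, at 40.5 ± 21.6 CPM in HCT-116 and at 16.9 ± 4.52 CPM in T47D cells. The lowest PC3 library lay above the highest HCT-116 library (63.8 CPM), and HK2 was 96.6-fold, 4.7-fold and 11.3-fold higher. NDRG1, a stress-responsive gene, was at 341, 324 and 282 CPM and 4.23-fold, 5.6-fold and 109-fold higher, and P4HA1, a collagen prolyl hydroxylase, was 4.05-fold to 8.24-fold higher. The glycogen branching enzyme GBE1 was 1.75-fold to 7.97-fold higher, and FUT11, a fucosyltransferase gene, was 2.996-fold to 3.9-fold higher. In contrast, DDIT4 (REDD1), a restraint on mTORC1, was at 11.2, 9.86 and 12 CPM, and was lower than in A549 (220 ± 43.9 CPM), HCT-116 (5.9-fold) and T47D cells (2.71-fold). Of 11 genes of the HIF pathway itself, 4 were higher and 4 lower than the mean, each 36.4% of the list and near the shares of all genes, and HIF1AN (FIH), an oxygen-dependent inhibitor of HIF, was 1.42-fold to 2.7-fold higher than in the other lines.

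**Figure D5:**
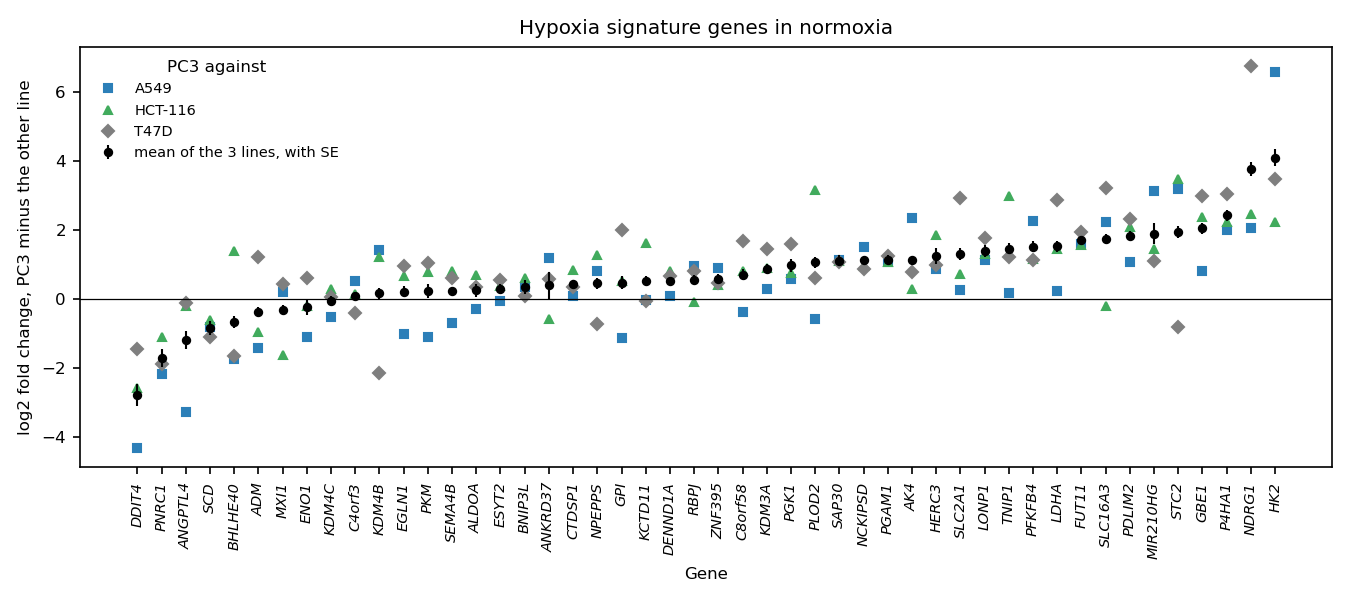
Log2 fold change of PC3 against A549, HCT-116 and T47D cells in normoxia (coloured points) and against their mean (black, with SE) for the 48 genes of the hypoxia signature, ordered by the value against the mean. Most points lie above 0, HK2 and NDRG1 are high against all 3 lines, and DDIT4 is below 0 against all 3.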

How the data were processed

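Counts of 12 normoxic libraries were compared, with the 12 hypoxic libraries used as a cross-check. The authors trimmed reads with TrimGalore 0.3.3, aligned them to GRCh37 with HISAT2 2.05, removed fragments without a unique position with Picard 2.0.1 and counted the rest on UCSC genes with HTSeq 0.5.4p3 (intersection-strict). The files deposited by the authors hold raw counts, with no scaling. Genes with near-identical copies lose counts, the strand setting is not given in the sources used here, and genes that overlap an antisense gene are uncertain.

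Genes were filtered with filterByExpr, scaled by TMM and tested with the quasi-likelihood test of edgeR 4.0.16 in R 4.3.3, with PC3 contrasted with the mean of log2 levels of the other lines and with each line. A gene could pass the filter on its PC3 counts alone, and such a list member could not be called lower. A gene was called at a Benjamini-Hochberg adjusted p under 0.05 with more than a 1.2-fold difference. Folds in the text are ratios of mean CPM, or against 3 counts per library where a line had 0 counts, and SE is that of the fitted log2 fold change. GRCh37 positions came from GENCODE 44 annotation and promoters from RefSeq. The edgeR contrasts against the mean and against each line were tested on simulated counts, and the alternative fits were not.

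Members and lists were chosen with earlier results of these data known. Named genes were members of the lists, the 12 genes with the largest differences in each direction among those called against each line without overlap and at a mean of at least 2 CPM (in PC3 for higher genes, in each other line for lower genes), genes silent or read only in PC3, and neighbours of CTNNA1. Some items are not reported here. Alternatives were DESeq2 1.42.0, other scalings, filters and thresholds, a replicate block, 1 fit of all 24 libraries, hypoxic libraries, and leaving out each library or each other line.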

Additional observations from a re-analysis of the deposited data

How the results depend on the processing

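The counts of genes higher and lower in PC3 than the mean stayed within 1.5 times of their values under other scalings, other filters, a DESeq2 fit, 1 fit of all 24 libraries, hypoxic libraries and a stricter adjusted p, and moved with the fold required. DESeq2 called 5245 genes higher and 5100 lower. Over a 2-fold difference, 2940 genes were higher and 2494 lower than the mean, 2871 were higher and 3184 lower than in A549, 3355 were higher than in HCT-116 and 3462 than in T47D, and 934 were higher and 841 lower than in each line. With 1 other line left out, only 2 pairs had to be called, and the genes higher and lower than each remaining line numbered 2926 and 2559 without A549, 2533 and 2430 without HCT-116, and 2769 and 2479 without T47D. With each library left out in turn, genes higher and lower than the mean numbered 4671 to 5511 and 3734 to 4710, and those higher and lower than each line 1480 to 1869 and 1210 to 1615. Among named genes called against the mean, AKR1B10 and TXNRD1 reversed. Against the mean of A549 and HCT-116 alone, their log2 fold changes turned to -1.99 and -0.32, and among hypoxic libraries that of TXNRD1 turned to -0.37. The median of the mesenchymal list was -0.35 without T47D, and that of the hypoxia signature was -0.18 among hypoxic libraries. Over all alternatives, the median ranged from 1.05 to 4.22 for the cytokine list and from 0.49 to 3.58 for plasminogen activation. For bone-acting factors it ranged from 1.44 to 5.1, and for the EGF list from 1.09 to 1.99. Some medians changed sign, as for keratins (-0.58 to 3.11), NRF2 targets (-1.715 to 0.786) and luminal breast genes (-2.6 to 2.24). The cause was not tested.

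Libraries of different lines share replicate numbers without a stated pairing. The mean correlation of the deviations of same-numbered libraries was -0.0131, and 5 of 18 pairs were over 0.1, so the numbers were not taken as pairs. With the replicate number as a block, 5214 genes were higher and 4234 lower than the mean.

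A PC3 gene at 0 counts has an upper limit of 0.0936 CPM on average, since PC3 libraries 1 and 3 were the shallowest of the 12. Each tissue is 1 line, and line and medium cannot be told apart except against A549. The methods of the paper name alternative RNA kits, library kits and sequencers without giving them by line. A technical difference between lines, A549 included, was therefore not tested.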

Other observations

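Targets of NRF2, the oxidative stress factor, were compared with each line. Of 22 targets tested, all 22 were lower in PC3 than in A549 (31.1% of all genes). Against HCT-116, 10 were higher and 5 lower (33.2% and 32.4% of all genes), and against T47D 14 were higher and 3 lower (33.4% and 34.4%). The median log2 fold changes were -3.31, 0.39 and 1.44. The quinone reductase NQO1 was at 182, 188 and 215 CPM in PC3, and was 10.9-fold lower than in A549 (2129 ± 150 CPM) and lower than in the other lines as well. The aldo-keto reductase AKR1B10 was at 11.8 ± 1.24 CPM in PC3 against 3469 ± 355 CPM in A549, 0.613 ± 0.27 CPM in HCT-116 and 0 counts in T47D cells, and was called higher than the mean of the lines (19.2-fold above HCT-116, at least 210.4-fold above T47D). The thioredoxin reductase TXNRD1 was lower than in A549, 1.82-fold higher than in HCT-116 and 4.95-fold higher than in T47D. Of 26 cell cycle genes, 7 (26.9%) were higher and 8 (30.8%) lower than the mean, near the 33.9% and 28.6% of all genes, and the median log2 fold change was 0.17. CCND1, cyclin D1, was at 1361, 1523 and 1050 CPM in PC3 and 2.57-fold to 5.67-fold higher than in the other lines. E2F1 was 1.35-fold to 4.4-fold higher, and CCNB2, cyclin B2, was 1.9-fold to 2.98-fold lower than in the other lines.

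By chromosome, the median log2 fold change against the mean ranged from -0.466 on chromosome 16 (678 genes) to 0.628 on chromosome 21 (151 genes). On chromosome 21, 63.6% of genes were called higher and 6.62% lower, and on chromosome 16, 13.3% higher and 46.8% lower. The shares of all genes were 33.9% higher and 28.6% lower. The medians for chromosome 21 were 0.976, 0.829 and 0.365 against A549, HCT-116 and T47D.

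The same comparison among the hypoxic libraries, which come from the same lines, called 1842 genes higher in PC3 than in each line. Of these, 1332 were also called in normoxia, which is 72.3% of the hypoxic and 75.6% of the normoxic calls, and 1 normoxic call was in the opposite direction. For lower genes the shared number was 1092, which is 62.3% of 1754 hypoxic and 72.6% of 1504 normoxic calls.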
